A study of Homo sapiens with 12 samples.

Results

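Chemokines are small secreted proteins that bind receptors on leukocytes and set the direction in which these cells move. Epithelial and tumour cells make a subset of them. CXCL1, CXCL2, CXCL3, CXCL5 and CXCL8 carry an ELR motif before their first cysteines, bind CXCR2 and draw neutrophils, and their transcription is classically switched on by interleukin-1 and tumour necrosis factor through NF-kB. CXCL10 is an interferon-induced ligand of CXCR3 on T cells. CXCL16 and CX3CL1 are made as membrane proteins that metalloproteases can release. CCL20 draws cells with CCR6, and CCL28 draws cells with CCR10 at mucosal surfaces.

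The 10 genes described here were the rows of the expression table named CXCL1, CXCL2, CXCL3, CXCL5, CXCL8, CXCL10, CXCL16, CX3CL1, CCL20 and CCL28, out of 58302 genes in all. They are CXC and CC chemokines that epithelial tumour cells can make, except CX3CL1, which belongs to the separate CX3C class. RNA was sequenced from 4 human pancreatic cancer cell lines with 3 replicates each, 12 libraries in all. BxPC-3 and CFPAC-1 were the parental lines, labelled as drug sensitive and of epithelial morphology. BxPC-3 grown in rising concentrations of gemcitabine (GEM) gave BxPC-3-GR, and CFPAC-1 gave CFPAC-1-GR in the same way, both labelled as resistant. BxPC-3-GR was labelled mesenchymal and CFPAC-1-GR epithelial. Each resistant line is 1 derived line per parent, and whether it came from a single clone is not given in the sources used here. The sample records name RPMI medium with 10% serum for every line, whereas the study's methods name another medium for CFPAC-1. The question was how the chemokines differed between each resistant line and its parent, and between the lines.

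The lines expressed epithelial genes, also BxPC-3-GR, which was labelled mesenchymal. Of 7 epithelial markers, all had a library above 1 FPKM in every line except CFPAC-1-GR, in which CLDN4 stayed below it. FPKM is a fragment number scaled to the length of the gene and the depth of its library. The summed level of these markers lay between 838 and 1035 FPKM in the BxPC-3 lines, between 2641 and 2915 FPKM in CFPAC-1 and between 1156 and 1347 FPKM in CFPAC-1-GR. In BxPC-3-GR the mean RNA of the adhesion genes CDH1 and EPCAM was not lower than in BxPC-3. CDH1 (E-cadherin) was at 45.3 ± 11.6 against 43.0 ± 10.5 FPKM, and EPCAM at 68.26 against 56.02 FPKM. CLDN4 varied too widely to compare, from 0.0415 to 8.78 FPKM in BxPC-3 and from 1.42 to 23.4 FPKM in BxPC-3-GR. Mesenchymal genes were not examined as a set, so the label was not tested. PTPRC, the pan-leukocyte antigen, was listed at 0 in every library. The 8 leukocyte markers summed to at most 48.5 FPKM in a library of CFPAC-1, most of it CD68, against at most 4.49 FPKM in the BxPC-3 lines, and the fibroblast and endothelial markers summed to at most 4.12 and 0.911 FPKM. Low values stepped in whole fragments for 52.0% to 64.5% of genes at a tolerance of 0.02, which implied a depth of 12600000 to 25200000 fragments. The labels do not say that replicates were separate cultures, so the p-values measure the spread between these libraries only. In bulk RNA, fewer cells that make a chemokine and less RNA per cell cannot be told apart.

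The 5 ELR chemokines lie within 1 cluster on the long arm of chromosome 4, and they share the letters of an NF-kB site close to their start. GGAATTTCC was searched on both strands in the 250 bases before each RefSeq transcription start (GRCh38.p14). It was found in 6 of the 8 chemokines with a promoter in the table, CXCL1, CXCL2, CXCL3, CXCL5, CXCL8 and CXCL10, against 0.413% of 35116 promoters in all. The match began 78 bases before the start in CXCL1 and CXCL3, 77 in CXCL2, 90 in CXCL5, 91 in CXCL8 and 176 in CXCL10, where it lay on the other strand. These letters had been chosen as the core of the kB sites of CXC chemokine promoters. Their share among the chemokines was thus set by that choice and is not an independent result. The kB consensus, which can overlap these letters, was present in 6 of the 8 chemokines and in 9.96% of all promoters. In CXCL1, CXCL2, CXCL3 and CXCL5 every match of the consensus contained the chosen letters. This share is therefore not an independent result either. Only CXCL10 and CCL20 had a match of the consensus apart from these letters. The consensus was not found in CXCL8. CCL20 held the consensus alone, and neither pattern was found in the windows of CCL28. A match of letters is a description and not a site of binding. The stretches are shown from the 5′ to the 3′ end of the gene's strand, with the matched letters in capitals. They show how alike the promoters of CXCL1, CXCL2 and CXCL3 are next to those of CXCL5, CXCL8 and CXCL10.
CXCL1 (chr4:73869280-73869358, plus strand): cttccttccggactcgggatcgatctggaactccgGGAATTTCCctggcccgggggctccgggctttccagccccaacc
CXCL2 (chr4:74099254-74099282, minus strand): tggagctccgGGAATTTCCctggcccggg
CXCL3 (chr4:74038749-74038777, minus strand): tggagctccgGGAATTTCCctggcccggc
CXCL5 (chr4:73998749-73998777, minus strand): atgagttcagGGAATTTCCccagcatccc
CXCL8 (chr4:73740443-73740521, plus strand): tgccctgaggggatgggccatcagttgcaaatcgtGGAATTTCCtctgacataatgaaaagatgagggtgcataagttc
CXCL10 (chr4:76023630-76023708, minus strand): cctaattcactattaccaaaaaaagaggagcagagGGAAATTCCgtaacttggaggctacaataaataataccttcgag

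The transcripts of the ELR chemokines differ in how well reads can be told apart. The coding sequences of CXCL1 and CXCL2 were 93.5% identical, those of CXCL2 and CXCL3 94.4% and those of CXCL1 and CXCL3 90.7%. Of the 50-base windows of the CXCL2 transcript, 8.99% also occurred in CXCL3, and 4.81% of those of CXCL1 occurred in CXCL2. Values of CXCL1, CXCL2 and CXCL3 are therefore uncertain by the fragments that could be assigned to either gene. CXCL5 shared no such window with CXCL6, its closest relative, at 87.4% identity. The chemokine transcripts also carry AU-rich elements, which mark short-lived messages. The letters ATTTA occurred 4 times or more in the 3′ untranslated region of 6 of the 10, with 11 in CXCL5, 10 in CXCL2 and 9 in CXCL8, compared with 34.6% of 10125 expressed genes.

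Total chemokine expression differed widely between the lines, and different ligands made it up. Summed over the 10 genes it was 240 ± 7.34 FPKM in BxPC-3, 763 ± 52.7 FPKM in BxPC-3-GR, 1246 ± 7.37 FPKM in CFPAC-1 and 2470 ± 289 FPKM in CFPAC-1-GR (mean ± SD, n = 3). No library of one line overlapped another line. In the BxPC-3 lines CXCL1 made up most of the sum, with 71.9% ± 1.15 in BxPC-3 and 73.1% ± 0.490 in BxPC-3-GR. In the CFPAC-1 lines CXCL5 did, with 64.7% ± 0.721 in CFPAC-1 and 81.9% ± 0.654 in CFPAC-1-GR. These sums and shares are as deposited. On a log2 scale CXCL5 was 1.32 higher in CFPAC-1-GR than in CFPAC-1. After the correction for GC content and transcript length given below, this difference was 0.44. The share of CXCL8 was 8.04% ± 0.544 in BxPC-3 and 18.3% ± 0.505 in BxPC-3-GR, but stayed below 2% in both CFPAC-1 lines.

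**Figure D1:**
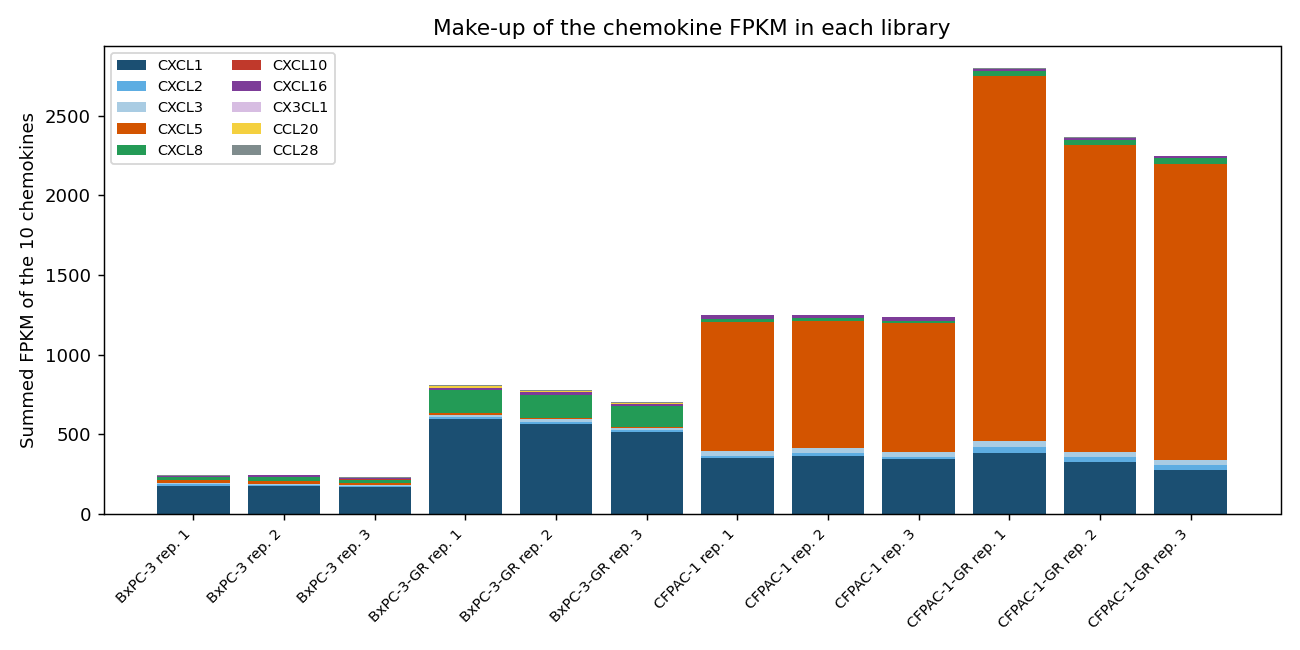
Summed FPKM of the 10 chemokines as deposited, without correction for GC content, in each of the 12 libraries, with 1 stacked bar per library and 1 colour per gene. CXCL1 fills most of the bars of the BxPC-3 lines, CXCL5 fills most of those of the CFPAC-1 lines, and the libraries of CFPAC-1-GR reach 2249 to 2798 FPKM.

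**Figure D2:**
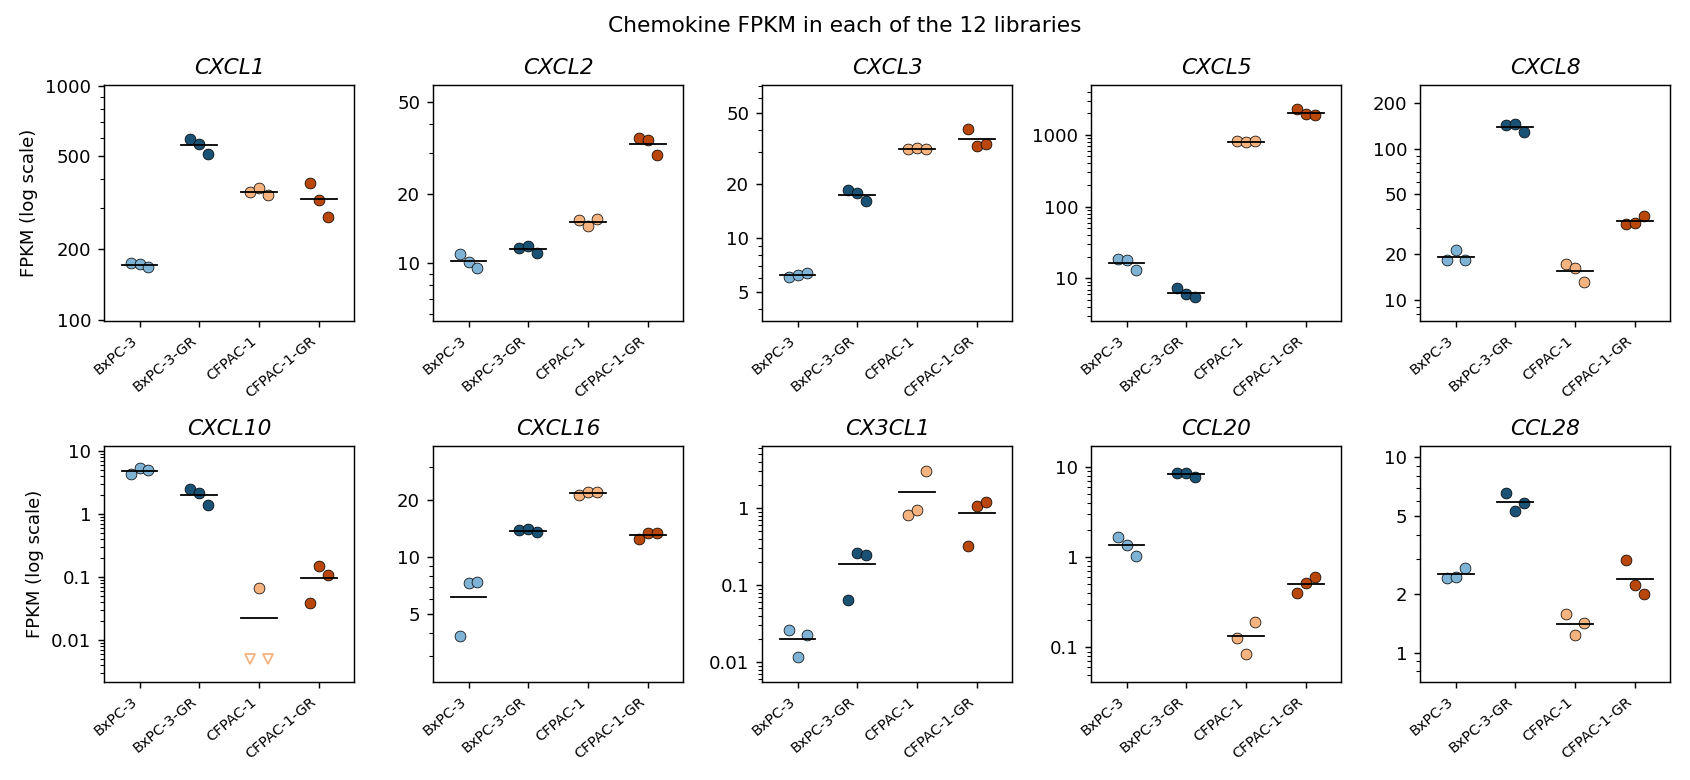
FPKM of each chemokine (1 panel per gene, log scale that differs between panels) in the 3 libraries of each line. Points are libraries, horizontal lines are means, and open triangles at the foot of the CXCL10 panel are the 2 CFPAC-1 libraries listed at 0. The 3 points of BxPC-3-GR lie above those of BxPC-3 for every gene except CXCL5 and CXCL10.

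In BxPC-3-GR, most of the neutrophil-attracting chemokines and CCL20 were higher than in BxPC-3, whereas CXCL5 was lower. Of 9 chemokines with a mean of at least 1 FPKM, 5 were significantly differentially expressed (SDE) and higher and 1 was SDE and lower, compared with 4.14% and 3.62% of 11710 genes tested. A gene was SDE where limma gave an adjusted p below 0.05 and the log2FC lay beyond 1 in either direction, where log2FC is the difference of mean log2(FPKM + 1). The median log2FC was 1.09 over the 9 chemokines and -0.05 over all genes. The groups did not overlap for any of the 9, which held for 66.1% of all genes. With 3 libraries against 3, an exact two-sided permutation test of a single gene cannot go below p = 0.1, so the tests rest on the spread shared across genes.

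CXCL8 (interleukin-8), which binds CXCR1 as well as CXCR2, had the largest log2FC of the 9 tested. It stood at 18.4, 21.2 and 18.3 FPKM in BxPC-3 and at 144, 147 and 129 FPKM in BxPC-3-GR. Every resistant library was far above every parental library. The mean rose 7.26-fold, from 19.3 ± 1.69 to 140 ± 9.42 FPKM, with a log2FC of 2.80 ± 0.08 (SE, limma adjusted p = 4.6e-06).

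CXCL1, the most abundant chemokine of the line, stood at 175, 174 and 168 FPKM in BxPC-3 and at 594, 565 and 514 FPKM in BxPC-3-GR. The increase was 3.23-fold with a log2FC of 1.69 ± 0.07 (limma adjusted p = 1.2e-05). CXCL3, a close paralog, was measured at 6.05, 6.24 and 6.36 FPKM in BxPC-3 and at 18.4, 17.8 and 16.0 FPKM in BxPC-3-GR. It rose 2.80-fold, with a log2FC of 1.35 ± 0.06 (limma adjusted p = 2.3e-05). CXCL2, the other member of this trio, did not pass the test. Its means were 10.2 ± 0.683 and 11.5 ± 0.380 FPKM and its log2FC was 0.16 ± 0.06 (limma adjusted p = 0.064), although the groups did not overlap.

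CXCL5, a further CXCR2 ligand whose gene lies between CXCL1 and CXCL3, changed in the opposite direction. It stood at 18.75, 18.10 and 13.03 FPKM in BxPC-3 and at 7.31, 5.98 and 5.52 FPKM in BxPC-3-GR. All resistant libraries lay below all parental ones. The mean was 2.65-fold lower, with a log2FC of -1.27 ± 0.16 (limma adjusted p = 0.00083).

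CCL20, the ligand of CCR6, rose from 1.66, 1.38 and 1.03 FPKM in BxPC-3 to 8.59, 8.59 and 7.78 FPKM in BxPC-3-GR. The mean was 6.12-fold higher and the log2FC was 1.99 ± 0.11 (limma adjusted p = 3.4e-05). CCL28 was at 2.42, 2.44 and 2.70 FPKM in BxPC-3 and at 6.60, 5.34 and 5.83 FPKM in BxPC-3-GR, a 2.35-fold difference without overlap. Its log2FC of 0.97 ± 0.08 (limma adjusted p = 0.00016) lay just inside the limit of 1, so that it was not SDE. It passed the limit after median-of-ratios scaling (log2FC 1.01) and with a pseudocount of 0.1 (1.198).

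CXCL16, a membrane-bound scavenger receptor as well as a chemokine, rested in part on 1 library. It was at 3.85, 7.32 and 7.36 FPKM in BxPC-3 and at 13.8, 14.0 and 13.6 FPKM in BxPC-3-GR. The log2FC of 1.09 ± 0.21 (limma adjusted p = 0.0057) fell to 0.83 when replicate 1 of BxPC-3 was left out, and CXCL16 was then no longer SDE. CX3CL1 (fractalkine) was too low to be tested, at 0.0266, 0.0118 and 0.0225 FPKM in BxPC-3 and 0.0642, 0.260 and 0.245 FPKM in BxPC-3-GR.

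CXCL10 moved downward together with its neighbour in function, CXCL11. CXCL10 was at 4.40, 5.38 and 4.93 FPKM in BxPC-3 and at 2.53, 2.20 and 1.40 FPKM in BxPC-3-GR. These values correspond to 90 to 124 and 41 to 75 fragments. The mean was 2.39-fold lower without overlap, with a log2FC of -0.97 ± 0.15 (limma adjusted p = 0.0022), which was just short of the limit for SDE genes. It passed the limit with a pseudocount of 0.1 (log2FC -1.25).

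**Figure D3:**
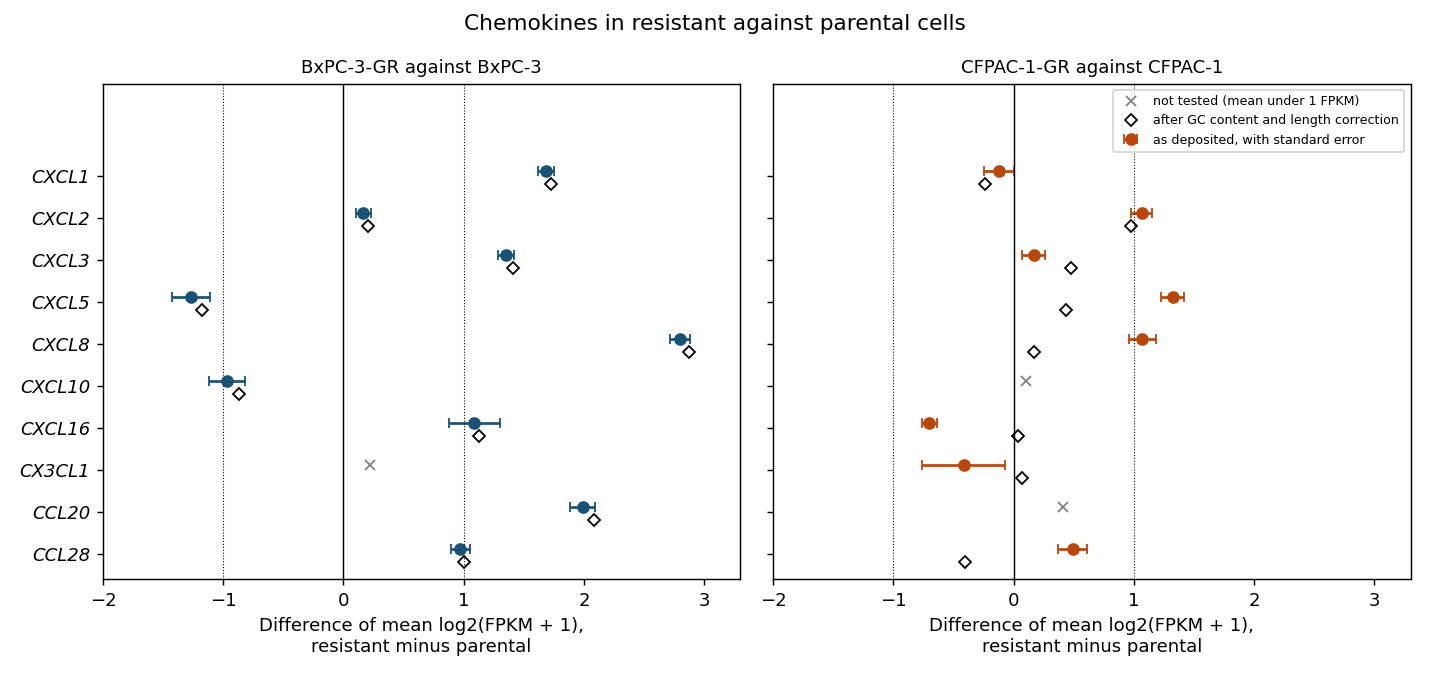
Log2FC of each chemokine in the resistant against the parental line (x axis, resistant minus parental, difference of mean log2(FPKM + 1)), for BxPC-3-GR on the left and CFPAC-1-GR on the right. Filled circles with standard errors are the values as deposited, open diamonds are after correction for GC content and transcript length, crosses are genes under 1 FPKM that were not tested, and dotted lines mark the limits of -1 and 1. Circles and diamonds lie close together on the left, whereas on the right CXCL5 shifts from 1.32 to 0.44 and CXCL8 from 1.07 to 0.17.

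In CFPAC-1-GR, CXCL2, CXCL5 and CXCL8 were higher than in CFPAC-1 as deposited, and CXCL1 and CXCL3 did not pass the test. The log2FC of each tested chemokine lay between the 10th and the 90th percentile of the genes within 1 percentage point of its GC content. Of 8 chemokines tested, 3 were SDE and higher, compared with 20.5% of 12051 genes tested. No chemokine was SDE and lower (11.7% of all genes), although 1 of them, CXCL16, had an unadjusted limma p below 0.05 in that direction. The median log2FC was 0.33 over the 8 chemokines and 0.13 over all genes. The groups did not overlap for 6 of the 8, against 82.1% of all genes.

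The log2FC of all tested genes followed GC content closely in this comparison (Spearman's rho = -0.78 across 12030 genes, which are not independent) and hardly in BxPC-3-GR (rho = 0.04 across 11685 genes). Genes rich in A and T were higher and genes rich in G and C lower in CFPAC-1-GR. CXCL8, with 33.4% GC, and CXCL5, with 37.6%, are among the most AT-rich chemokines. The log2FC was therefore also given after removing a smooth trend with GC content and transcript length. In that fit 0 of the 8 chemokines were SDE, compared with 9.43% of all genes, and limma gave 4 of them an unadjusted p below 0.05. Whether the trend arose in the cells or in the libraries was not tested.

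CXCL5 was the most abundant chemokine in every library of both CFPAC-1 lines. It stood at 810, 800 and 808 FPKM in CFPAC-1 and at 2289, 1923 and 1858 FPKM in CFPAC-1-GR. Every resistant library was above every parental one, and the mean was 2.51-fold higher with a log2FC of 1.32 ± 0.09 (limma adjusted p = 1.7e-05). The 636 tested genes within 1 percentage point of its GC content had a median log2FC of 1.29, and after the correction the log2FC of CXCL5 was 0.44 (limma adjusted p = 0.0015).

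CXCL8 was at 17.2, 16.1 and 13.1 FPKM in CFPAC-1 and at 31.9, 32.5 and 35.7 FPKM in CFPAC-1-GR, without overlap. The log2FC was 1.07 ± 0.11 (limma adjusted p = 9.9e-05), 0.96 without replicate 3 of CFPAC-1 and 0.17 after the correction (limma adjusted p = 0.24). The 85 genes of like GC content had a median log2FC of 1.304.

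CXCL2 stood at 15.4, 14.4 and 15.5 FPKM in CFPAC-1 and at 34.7, 34.1 and 29.4 FPKM in CFPAC-1-GR. The mean was 2.17-fold higher with a log2FC of 1.06 ± 0.08 (limma adjusted p = 2.9e-05). Here the 921 genes of like GC content had a median log2FC of 0.47 (10th to 90th percentile -0.31 to 1.15), and CXCL2 had 0.98 after the correction (limma adjusted p = 0.00011). Its paralogs CXCL1 and CXCL3 did not pass the test. CXCL1 was at 351, 366 and 343 FPKM in CFPAC-1 and at 385, 325 and 275 FPKM in CFPAC-1-GR, with overlap and a log2FC of -0.12 ± 0.12 (limma adjusted p = 0.4). CXCL3 had means of 31.5 ± 0.116 and 35.6 ± 4.32 FPKM and a log2FC of 0.17 ± 0.09 (limma adjusted p = 0.14), which was -0.15 after median-of-ratios scaling.

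CXCL16 was lower in every CFPAC-1-GR library, at 12.4, 13.3 and 13.3 FPKM against 21.3, 22.0 and 22.1 FPKM in CFPAC-1. Its log2FC was -0.70 ± 0.06 (limma adjusted p = 5.2e-05), below the limit, and 0.03 after the correction. The 758 genes of like GC content had a median of -0.53. CCL28 was at 1.57, 1.23 and 1.41 FPKM in CFPAC-1 and at 2.96, 2.22 and 1.99 FPKM in CFPAC-1-GR. Its log2FC of 0.49 ± 0.12 (limma adjusted p = 0.0073) became -0.41 after the correction, so that no direction can be given for it.

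CX3CL1 varied widely within the lines, at 0.808, 0.958 and 3.07 FPKM in CFPAC-1 and at 0.321, 1.07 and 1.21 FPKM in CFPAC-1-GR. The ranges overlapped and the log2FC was -0.42 ± 0.34 (limma adjusted p = 0.3). CCL20 and CXCL10 were below 1 FPKM and not tested. CCL20 was at 0.127, 0.0839 and 0.192 FPKM in CFPAC-1 and at 0.404, 0.515 and 0.613 FPKM in CFPAC-1-GR, without overlap. CXCL10 amounted to at most 1 fragment per library in CFPAC-1 and to 1, 3 and 2 fragments in CFPAC-1-GR, so that a difference was not detectable at this depth.

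**Figure D4:**
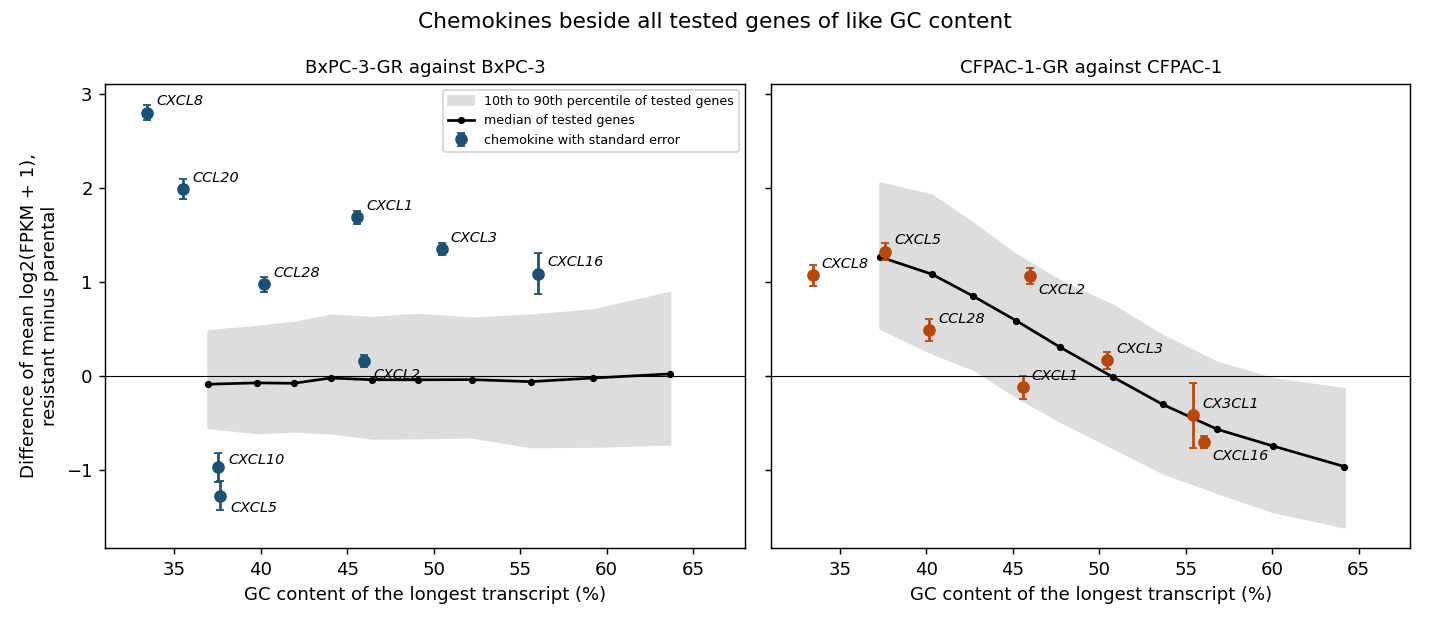
Log2FC (y axis, resistant minus parental) against the GC content of the longest transcript (x axis, percent) for the tested chemokines, as coloured points with standard errors. The black line is the median and the grey band the 10th to 90th percentile of all tested genes in 10 equal groups by GC content. In BxPC-3-GR the median is flat and every chemokine but CXCL2 lies outside the band, whereas in CFPAC-1-GR the median falls from 1.27 to -0.96 and the chemokines lie in the band, except CXCL8, whose GC content is to the left of it.

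Scaling mattered in the same comparison. The median log2FC of all genes was 0.13 as deposited, -0.14 after median-of-ratios scaling and -0.29 after upper-quartile scaling. With either of these, CXCL2, CXCL5 and CXCL8 remained higher but were no longer SDE, with log2FC of 0.76, 0.9996 and 0.76 after median-of-ratios scaling, and CXCL16 was SDE and lower (-1.004).

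The response of the chemokines differed between the lines, by a test of the difference itself over all 12 libraries. The difference is the log2FC of the CFPAC-1 lines minus that of the BxPC-3 lines. Of 9 chemokines tested, 2 differed in favour of the CFPAC-1 lines and 5 in favour of the BxPC-3 lines, compared with 23.6% and 14.4% of 12210 genes. CXCL10, counted among the former, and CCL20, among the latter, passed the filter only through the BxPC-3 lines. Their calls add no weight to the counts. CXCL5 had a difference of 2.59 ± 0.19 (limma adjusted p = 3.9e-07), since it fell in BxPC-3-GR and was higher in CFPAC-1-GR, and 1.68 after the correction. CXCL1 differed by -1.80 ± 0.15 (limma adjusted p = 8.2e-07) and CXCL8 by -1.73 ± 0.14 (limma adjusted p = 9.2e-07). These became -1.93 and -2.64 after the correction. CXCL16 differed by -1.79, CCL20 by -1.58 and CXCL3 by -1.18, with corrected values of -1.06, -2.45 and -0.91, the last no longer SDE. The difference for CCL20 depends on the pseudocount, since the gene was below 1 FPKM in the CFPAC-1 lines. It was -1.16 with a pseudocount of 0.1, and -0.69 from the ratios of mean FPKM, which were 6.12 for the BxPC-3 lines and 3.80 for the CFPAC-1 lines. CXCL10 differed by 1.07, but this is a fall from a measurable level in 1 line set beside at most 3 fragments per library in the other, and the corrected value was 0.24. CXCL2 and CCL28 did not reach the limit, with differences of 0.90 and -0.48. After the correction CCL28 reached -1.36.

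Between the parental lines, CFPAC-1 had more CXCL5, CXCL3, CXCL1 and CXCL16 and less CXCL10 than BxPC-3. Of 8 chemokines tested, 4 were SDE and higher and 1 was SDE and lower, compared with 19.8% and 24.7% of 11842 genes, and the groups did not overlap for all 8 (85.6% of all genes). This comparison uses the same parental libraries as those of resistance. CXCL5 was 48.5-fold higher in CFPAC-1, at 805.8 ± 5.503 against 16.6 ± 3.13 FPKM (log2FC 5.53 ± 0.13, limma adjusted p = 2e-07). CXCL3 was 5.06-fold higher (log2FC 2.17 ± 0.05) and CXCL1 2.05-fold higher (1.03 ± 0.05). CXCL16 was 3.53-fold higher, with a log2FC of 1.71 ± 0.21 that became 0.88 after the correction and was then not SDE. CXCL10 was 4.90 ± 0.486 FPKM in BxPC-3 and at most 0.0674 FPKM in a library of CFPAC-1. Its log2FC of -2.53 depends on the pseudocount, since 2 of the CFPAC-1 libraries were listed at 0, and the gene passed the filter only through BxPC-3.

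GC content ran with the difference between the parental lines as well (rho = 0.63 across 11821 genes). The directions of CXCL8 and CCL28 turned with the correction for GC content and length. CXCL8 had a log2FC of -0.31 ± 0.11 (limma adjusted p = 0.041), which was 0.56 after the correction. CCL28 had -0.55 ± 0.07 and 0.43 after it. With the correction but no filter on low genes these were 0.05 and -0.07. CXCL2 was 0.53 ± 0.07 and 0.58 after it. CX3CL1 and CCL20 were below the limit for testing. CX3CL1 was at most 0.0266 FPKM in BxPC-3 against at least 0.808 FPKM in CFPAC-1, and CCL20 at least 1.03 FPKM in BxPC-3 against at most 0.192 FPKM in CFPAC-1.

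Between the resistant lines, which share their libraries with the comparisons above, GC content did not run with the difference (rho = -0.02 across 12302 genes). Of 9 chemokines tested, 2 were SDE and higher in CFPAC-1-GR and 4 were SDE and lower, against 10.3% and 6.8% of 12330 genes. The groups did not overlap for all 9 (71% of all genes). CXCL5 was 323-fold higher in CFPAC-1-GR, with a log2FC of 8.12 ± 0.12 (limma adjusted p = 1e-07). CXCL2 was 2.84-fold higher (log2FC 1.43 ± 0.08). CXCL8 was 4.20-fold lower (log2FC -2.04 ± 0.08) and CCL20 16.3-fold lower (-2.63 ± 0.08). CXCL10 was also lower, at 0.0992 ± 0.0557 against 2.05 ± 0.581 FPKM. CCL20 and CXCL10 passed the filter only through BxPC-3-GR. CCL28 had a log2FC of -1.04 ± 0.12, which came to -0.97 without replicate 1 of BxPC-3-GR and -0.95 without replicate 3 of CFPAC-1-GR. CXCL1 (-0.77), CXCL3 (0.99) and CXCL16 (-0.08) were not SDE.

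The order of the lines differed from gene to gene. CXCL5 ranked CFPAC-1-GR, CFPAC-1, BxPC-3 and BxPC-3-GR, and none of its neighbours in this order overlapped. CXCL2 and CXCL3 ranked CFPAC-1-GR, CFPAC-1, BxPC-3-GR and BxPC-3, also without overlap. CXCL1, CXCL8, CCL20 and CCL28 were highest in BxPC-3-GR. Neighbouring lines overlapped for CXCL1 in CFPAC-1 and CFPAC-1-GR, for CCL28 in BxPC-3 and CFPAC-1-GR, and for CXCL10 and CX3CL1 in the CFPAC-1 lines. CXCL10 was highest in BxPC-3, and CXCL16 and CX3CL1 were highest in CFPAC-1.

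The ELR chemokines were next compared along chromosome 4 (GRCh38). CXCL8 (73740506 to 73743716, plus strand) opens the cluster, followed by CXCL1 (73869393 to 73871242, plus strand), CXCL5 (73995642 to 73998779, minus strand), CXCL3 (74036589 to 74038807, minus strand) and CXCL2 (74097035 to 74099293, minus strand). The first tested genes outside it were not SDE. RASSF6, on the side of CXCL8, had a log2FC of -0.19 in BxPC-3-GR. It was not tested in the CFPAC-1 lines, where its means were 0.229 FPKM in CFPAC-1 and 0.737 FPKM in CFPAC-1-GR without overlap. EREG, which encodes the growth factor epiregulin on the side of CXCL2, had -0.31 in BxPC-3-GR. In CFPAC-1-GR its log2FC was 0.85 (limma adjusted p = 4.3e-05), the direction of CXCL2, CXCL5 and CXCL8 there, and -0.28 after the correction. Within the cluster, CXCL6, the closest relative of CXCL5, was near 0 in the BxPC-3 lines (at most 0.148 FPKM) and expressed in the CFPAC-1 lines, at 14.9 ± 1.13 FPKM in CFPAC-1 and 22.2 ± 5.94 FPKM in CFPAC-1-GR (log2FC 0.52, limma adjusted p = 0.028, not SDE). This log2FC was -0.13 after the correction (limma adjusted p = 0.5) and 0.04 after upper-quartile scaling. PPBP, a platelet chemokine gene between CXCL1 and CXCL5, had a mean of 1.01 ± 0.249 FPKM in CFPAC-1-GR. It was at or below 0.789 FPKM in every library of the other lines. Replicate 2 of CFPAC-1-GR, at 0.735 FPKM, lay below this highest value, and PPBP was not tested in either resistant line. Genes of the cluster thus changed in opposite directions in BxPC-3-GR, CXCL1 and CXCL3 upward and CXCL5, which lies between them, downward.

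**Figure D5:**
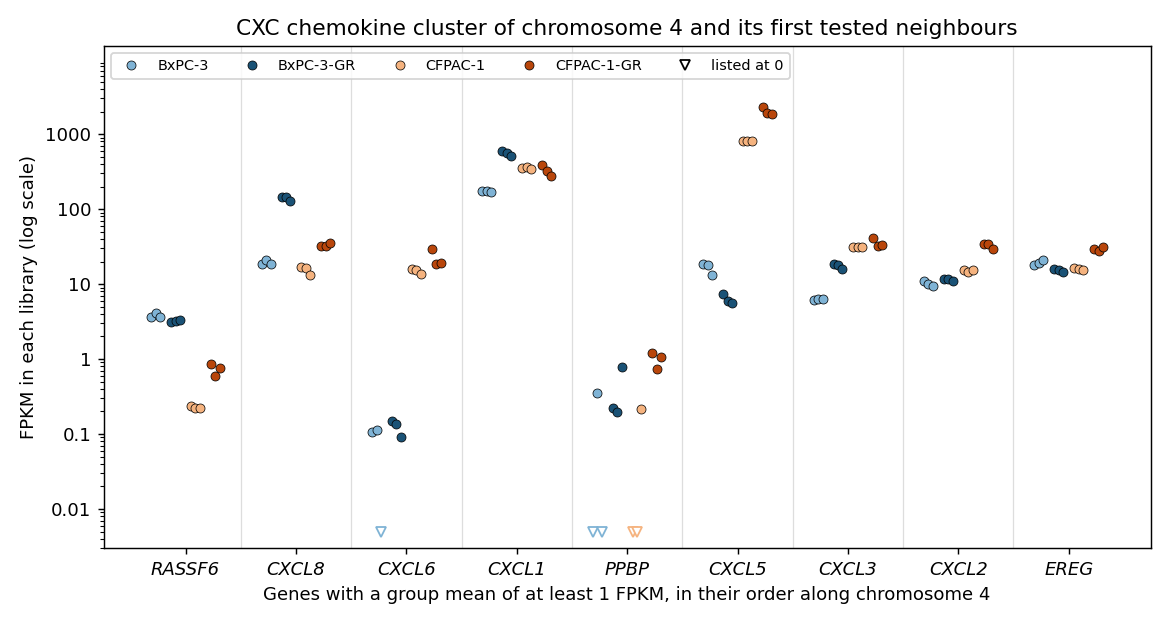
FPKM (y axis, log scale) in each of the 12 libraries for the genes of the chromosome 4 cluster with a group mean of at least 1 FPKM, and the first tested gene on either side, in their order along the chromosome (spacing not to scale). Points are libraries and open triangles are libraries listed at 0. CXCL8, CXCL1 and CXCL3 are higher in BxPC-3-GR than in BxPC-3, and CXCL5 between them is lower.

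CXCL10 (4:76021117-76023497, minus strand) lies apart from this cluster on the same chromosome, CXCL16 on chromosome 17 (4733526 to 4739922, minus strand), CX3CL1 on chromosome 16 (57372458 to 57385048, plus strand), CCL20 on chromosome 2 (227813842 to 227817564, plus strand) and CCL28 on chromosome 5 (43376645 to 43412391, minus strand).

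Of 30 other chemokine ligand genes, few were expressed. In BxPC-3-GR, 3 were tested and were SDE, 2 higher and 1 lower, against 4.14% and 3.62% of all genes. Each passed the filter only through the line in which it was high, so that their count carries no weight. CXCL14 rose from 0.598 ± 0.0788 to 17.3 ± 2.07 FPKM (log2FC 3.51, limma adjusted p = 3.2e-06). CCL22, a ligand of CCR4, rose from 0.934 ± 0.101 to 7.75 ± 0.268 FPKM (log2FC 2.18). CXCL11, which shares the receptor CXCR3 with CXCL10, fell from 4.47 ± 0.541 to 0.628 ± 0.176 FPKM (log2FC -1.75). In CFPAC-1-GR, 6 were tested and 1 was SDE and lower, against 11.7% of all genes. CCL21 was at 3.11 ± 1.40 FPKM in CFPAC-1 and listed at 0 in all CFPAC-1-GR libraries, so that it passed the filter only through CFPAC-1. The log2FC of -1.99 depends on the pseudocount, and was -0.998 after the correction and then not SDE. CCL2 had a mean of 1.63 FPKM in CFPAC-1 and at most 0.955 FPKM elsewhere, and CCL24 and CCL26 reached 1.81 and 1.10 FPKM in CFPAC-1. In CFPAC-1-GR the log2FC of CCL2 was -0.76 and not SDE as deposited. After the correction CCL2 was SDE and lower (-1.27, limma adjusted p = 0.00017). It had passed the filter only through CFPAC-1.

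None of 23 chemokine receptor genes reached a mean of 1 FPKM in any line, so that none could be tested. CXCR1, CXCR6 and CCR6 were listed at 0 in every library, and CXCR2, the receptor of the ELR chemokines, did not exceed 0.0350 FPKM. The highest was CCRL2, a receptor that binds ligands without signalling, at 0.854 ± 0.0642 FPKM in BxPC-3.

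Among 25 inducing cytokines and their receptors, 15 were tested in BxPC-3-GR, with 2 SDE and higher and 4 SDE and lower, against 4.14% and 3.62% of all genes (IL1A, TLR4, IL1B and IL1RN). IL1R1, the signalling receptor of interleukin-1, rose from 0.270 to 5.15 FPKM (log2FC 2.27), and MYD88, its adaptor, had a log2FC of 1.01 ± 0.34 (limma adjusted p = 0.045) from 3.94 ± 2.74 to 8.06 ± 0.152 FPKM, which was no longer SDE after upper-quartile scaling (0.98). IL1A fell from 103 to 32.3 FPKM (log2FC -1.64) and TLR4 from 3.91 to 0.781 FPKM (log2FC -1.46). IL1R1 passed the filter only through BxPC-3-GR and TLR4 only through BxPC-3, so that their calls add no weight to the counts. IL1B also fell, from 19.1 to 6.37 FPKM (log2FC -1.45), and IL1RN had -1.22. Both were chosen for naming after their values were seen. The ligand and the receptor of the interleukin-1 pathway thus changed in opposite directions. In CFPAC-1-GR 13 were tested, with 2 SDE and higher (IL1A, log2FC 1.77, and TLR3, 1.32) and 2 SDE and lower (IRAK1, -1.56, and TRAF2, -1.16). The shares over all genes were 20.5% and 11.7%. None of these 4 was SDE after the correction. IL1B was not SDE in CFPAC-1-GR as deposited, at 1.01 against 2.63 FPKM in CFPAC-1 (log2FC -0.86). After the correction it was SDE and lower (-1.10, limma adjusted p = 9.5e-05). Here too it was named after its values were seen. TLR3 had passed the filter only through CFPAC-1-GR, so that its call adds no weight to the count.

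Of 18 NF-kB subunits, kinases and feedback inhibitors, 17 were tested in each line. In BxPC-3-GR, where 4.14% of all genes were SDE and higher and 3.62% SDE and lower, 2 of the 17 were SDE, both higher. They were BIRC3, an NF-kB target that encodes a ubiquitin ligase, from 2.38 to 10.8 FPKM (log2FC 1.81), and NFKBIA, which encodes the inhibitor IkB-alpha and is itself induced by NF-kB, from 12.2 to 30.8 FPKM (log2FC 1.27). The median log2FC of the 17 tested genes was 0.13, against -0.05 over all genes. In CFPAC-1-GR 3 were SDE and higher and 2 SDE and lower, close to the 20.5% and 11.7% of all genes. BIRC3 had a log2FC of 2.70, from 1.17 to 12.99 FPKM, and was still SDE at 1.48 after the correction. REL (log2FC 1.53), BCL3 (-1.45) and RELB (-1.13) were not SDE after it.

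Of the genes of the interferon pathway upstream of CXCL10, 15 were tested in each line. In BxPC-3-GR, where CXCL10 and CXCL11 were lower, 1 was SDE, JAK2, which was higher (log2FC 1.18, from 5.37 to 13.5 FPKM). The shares over all genes there were 4.14% SDE and higher and 3.62% SDE and lower. In CFPAC-1-GR 5 were SDE and higher and 1 SDE and lower, against 20.5% and 11.7% of all genes. DDX58, the RNA sensor RIG-I, had a log2FC of 2.09 and IFNAR1, a chain of the type I interferon receptor, 1.92. Both were still SDE after the correction, at 1.22 and 1.11. TMEM173, which encodes STING, had a log2FC of -1.22, and -0.50 after the correction.

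The proteases that release CX3CL1 and CXCL16 from the membrane were tested together with their regulators. In BxPC-3-GR 1 of these 5 genes was SDE and neither ADAM10 nor ADAM17 was. It was TIMP3, an inhibitor of these proteases, from 29.05 to 12.73 FPKM (log2FC -1.12). Of all genes, 3.62% were SDE and lower in BxPC-3-GR and 4.14% SDE and higher. In CFPAC-1-GR 2 of 4 were SDE and higher, ADAM10 (log2FC 2.03) and ADAM17 (1.295), with 0.69 and 0.07 after the correction, when neither was SDE. The share of all genes SDE and higher was 20.5%. Of 10 genes of AU-rich mRNA decay, limma called 0 SDE in BxPC-3-GR, although 6 had an unadjusted p below 0.05. With 4.14% and 3.62% of all genes SDE there, 0 of 10 lies near the background. In CFPAC-1-GR 1 was SDE and higher, TIA1 (log2FC 1.56), and 1 SDE and lower, ZFP36 (-1.18), which encodes tristetraprolin, against 20.5% and 11.7% of all genes. Neither was SDE after the correction.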

How the data were processed

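RNA of 4 lines was sequenced in 3 replicates each. The authors deposited their measurements as FPKM, which they obtained by scaling fragment numbers to gene length and library depth, in a table of 58302 genes by 12 libraries. The submitters' processing notes name Trimmomatic 0.27, FastQC 0.10.1 and TopHat2 2.0.8 and the builds hg19 and GRCh38. The coordinates of the table matched GRCh38. The program that computed FPKM is not given in the sources used here. The methods test counts with DESeq2, which FPKM values do not allow. Mapped depth was inferred from the steps between low values and was 12600000 to 25200000 fragments per library. It limits genes near 1 FPKM most.

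Groups were compared with limma 3.58.1 (R 4.3.3, lmFit and eBayes) on log2(FPKM + 1), which understates changes of low genes. A gene was tested where its FPKM averaged 1 or more over the libraries compared. P-values were adjusted over all tested genes by the Benjamini-Hochberg method, and SDE genes had an adjusted p below 0.05 with a log2FC beyond 1 in either direction. The difference of response was an interaction term over 12 libraries. The correction for GC content and transcript length subtracted a spline with 5 degrees of freedom from the log ratios. Alternatives were a pseudocount of 0.1, no filter, a fit of 12 libraries together, a block for the replicate number, other scalings, the ratio of means and each library left out.

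On simulated data with 200 changed genes, the test recovered 98% for the BxPC-3 lines (11726 genes) and 99.5% for the CFPAC-1 lines (12051 genes), with 0 false calls in either. With a simulated GC trend in the CFPAC-1 lines it recovered 85% with 557 false calls (12277 genes). After the correction it recovered 95.5% with 0 false calls (12255 genes). The simulation gave every gene the same spread between replicates, placed all changes beyond the limit, and drew the GC trend as a straight line. Spread differs between genes in the real data, so these rates hold only for the simulated settings. Recovery near the log2FC limit of 1, where CXCL2 and CXCL8 of CFPAC-1-GR and CXCL16 of BxPC-3-GR lie, was not tested separately. False calls were not tested separately for genes with a wide spread between replicates, such as CX3CL1 in the CFPAC-1 lines. GENCODE release 29 gave GC contents for 58039 genes, and RefSeq (GRCh38.p14) the promoters. CXCL16 and CX3CL1 had no entry there. Named genes were the 10 chemokines, up to 2 SDE genes with the largest increase and decrease per list and line, other ligands averaging 1 FPKM or more in a line, and the chromosome 4 neighbours. The chemokines and the lists were chosen with earlier results of these data known. Every column of the table was used.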

Additional observations from a re-analysis of the deposited data

Results flagged for a closer look

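For 7 chemokines the change in the resistant line differed between the 2 lines by the test of the difference itself, with limma over 12 libraries. Values are log2, CFPAC-1-GR minus CFPAC-1 less BxPC-3-GR minus BxPC-3. CXCL1 had -1.80, since it rose in BxPC-3-GR (1.69) and lay at -0.12 in CFPAC-1-GR. CXCL3 had -1.18, from 1.35 and 0.17. CXCL5 had 2.59, from -1.27 and 1.32. CXCL8 had -1.73, from 2.80 and 1.07, where the latter was 0.17 once GC content and length were corrected for (limma adjusted p = 0.24). CXCL16 had -1.79, from 1.09 and -0.70. CCL20 had -1.58, from 1.99 and an untested 0.41, and -0.69 from the ratios of mean FPKM. CXCL10 had 1.07, from -0.97 in BxPC-3-GR and at most 3 fragments per library in the CFPAC-1 lines. After the correction the differences for CXCL3 (-0.91) and CXCL10 (0.24, limma adjusted p = 0.31) were no longer past the threshold.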

How the results depend on the processing

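In BxPC-3-GR the 6 SDE chemokines numbered 6 to 8 with any 1 library left out, and SDE genes in all (909) between 849 and 965. They were 1429 with a pseudocount of 0.1, 1430 with this and the correction for GC content and length, and 2769 with this and no filter. In CFPAC-1-GR the 3 SDE chemokines became 0 after the correction, alone or with the replicate block, 1 after median-of-ratios or upper-quartile scaling, and 1 after the correction with no filter or with a pseudocount of 0.1. They were 2 to 3 with a library left out. All SDE genes of this comparison (3880) became 1134 after the correction, 1131 with the block added, 1977 with no filter, 2057 with the smaller pseudocount, and 8509 with that pseudocount, without a filter and without the correction. For CFPAC-1 against BxPC-3 (5274) the counts were 3195, 3192 with the block, and 11018 with the small pseudocount and no filter, for CFPAC-1-GR against BxPC-3-GR (2111) 6565 in the last setting, and for the difference of response (4643) 2386, 2383 and 9558. Directions turned in CFPAC-1-GR for CCL28 (-0.41 after the correction, with or without the block, and -0.43 with the correction and a pseudocount of 0.1), CXCL8 (-0.23, both choices together) and CXCL16 (0.03 after the correction, 0.21 with both), and between the parental lines for CXCL8 (0.56 and 1.03) and CCL28 (0.43 and 0.50). In CFPAC-1-GR the sign also turned for genes that had not passed the test, CXCL3 (-0.15 after median-of-ratios and -0.32 after upper-quartile scaling) and CX3CL1 (0.07 after the correction). The cause was not tested. The settings that join 2 choices, other than the block with the correction, were added after the data had been seen. Replicate numbers are shared between groups, but same-numbered libraries did not deviate together (r = -0.14 to 0.10). With the replicate block alone, 6 and 3 chemokines were SDE in the 2 resistant lines, and 908 and 3883 genes in all. Leaving out replicate 3 of BxPC-3-GR took the difference for CXCL10 to 0.91.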
